A study of Mus musculus with 4 samples.

Results

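The replication-dependent histone genes were taken as the 67 genes, of 32285 in the annotation of all 4 libraries, whose symbol starts with Hist1h, Hist2h, Hist3h or Hist4h. They comprised 6 linker (H1) genes and 61 core genes, of which 18 encode H2A, 18 H2B, 12 H3 and 13 H4. By position on GRCm38, 54 lie on chromosome 13, 10 on chromosome 3, 2 on chromosome 11 and 1 on chromosome 6. The members were chosen by symbol, and cycling cells were selected on measured values, namely at least 3 unique molecular identifiers (UMIs) of Mki67 and Top2a together. Differences between cycling and other cells are therefore given as a description, with no test.

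The study profiled dissociated MC38b tumours grown in mice, by droplet 3′ single-cell RNA sequencing on the 10x Genomics platform, to compare checkpoint blockade with and without blockade of the cytokine TL1A. The 4 libraries were 2 of PBS-treated animals (PBS 1 and PBS 2), 1 of animals given anti-mouse PD-1, and 1 of animals given anti-mouse PD-1 with anti-mouse TL1A (the combination). Tumours were harvested 24 hours after the second dose, and CD45+CD3+, CD45+CD3- and CD45-CD3- cells were sorted and remixed at 9:9:2 before loading. Replicate animals, 2 for saline and 4 for treatment by the study's account, were pooled as cell suspensions before the sort, and mouse strain, sex, age and the division of animals between PBS 1 and PBS 2 are not given in the sources used here. With 1 library per treatment, treatment and library cannot be told apart. The only estimate of spread came from the 2 PBS libraries.

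Histones package DNA. An octamer of H2A, H2B, H3 and H4 forms the nucleosome core, and H1 binds the linker DNA where it enters and leaves the core. Cells need new histones when they copy their DNA, and the clustered genes are transcribed mainly in S phase under the coactivator Npat. Most of these mRNAs lack a poly(A) tail and end in a conserved stem-loop that is bound by Slbp and cut with the help of the U7 small nuclear RNA and its proteins Lsm10 and Lsm11. Some of the genes also make polyadenylated transcripts, and libraries primed on poly(A), as here, see only the part of histone RNA that can be primed this way.

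A total of 33631 cells were kept (6219 in PBS 1, 5957 in PBS 2, 11523 in anti-PD-1 and 9932 in the combination), of which 4600 were cycling. The libraries held 78648222 to 142600208 UMIs, with median depths per barcode of 7798, 7646, 3588 and 7098 in the order PBS 1, PBS 2, anti-PD-1 and combination, an order kept for every set of 4 values below. Cell barcodes were shared between libraries far more often among the first 3 than with the combination: 673 between PBS 1 and PBS 2, 1255 between PBS 1 and anti-PD-1 and 1778 between PBS 2 and anti-PD-1, against 21, 23 and 39 for the pairs with the combination. Over all cells of a class, cycling or not, those with such barcodes were 132 of 1274 and 185 of 1163 CD8 T-like cells in PBS 1 and PBS 2, 16 of 450 and 24 of 441 regulatory T-like cells, 143 of 849 and 172 of 724 monocyte/macrophage-like cells, 103 of 1015 and 110 of 858 NK-like cells, and 344 of 346 and 156 of 158 CD45-negative cells. In the PBS libraries their share was larger among cycling CD8 T-like and regulatory T-like cells, as given below. Results are given with and without them where they differ. Classes are named from marker genes, and the CD45-negative class is given no cell type name: Ptprc, which encodes CD45, stood at 3.75 to 4.59 UMIs per 1000000 UMIs, and the epithelial markers Krt8 and Krt18 were at or near 0 (at most 0.27 in its 3 clusters, and Krt19 and Epcam at most 0.036) while the fibroblast genes Col3a1 and Dcn stood at 606 to 2689 and 698 to 2465. The sums over cells used here do not tell fewer cells making an mRNA from less mRNA per cell. Counts in single cells, which could separate them, are not given here.

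The stem-loop is the feature that sets these mRNAs apart, so it is shown for members on which the results turn. The 16-base DNA form of the stem-loop, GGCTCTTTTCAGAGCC, was searched on the transcript strand of the GENCODE M21 transcripts, allowing 2 mismatches. It was present in 41 of the 67 members, exactly in 26, with 1 mismatch in 7 and with 2 in 8, against 52 of 21563 other protein-coding genes (0.241%). The sequence was chosen as the 16-base hairpin found in the most members, so the choice itself favoured matches in members. All transcripts of a member were searched, but only the longest protein-coding transcript of a non-member, so these shares are not strictly alike. The other 26 members had no match in their annotated transcripts, Hist1h1b and Hist1h1a among them. Some of these transcripts are short (312 bases in Hist1h4k, 381 in Hist1h2bn and 393 in Hist1h2ai) and some long (2620 in Hist2h2be). Where they are short, the stem-loop may be missing only from the annotation. In the lines below, capitals mark the 16 bases, and the flanks are the 5 bases on either side.
Hist1h1e: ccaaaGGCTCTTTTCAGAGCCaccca
Hist1h1c: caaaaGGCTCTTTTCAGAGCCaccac
Hist1h2ab: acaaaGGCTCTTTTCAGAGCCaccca
Hist1h2ae: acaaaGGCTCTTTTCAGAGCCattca
Hist1h3e: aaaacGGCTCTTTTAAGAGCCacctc
Hist2h2ac: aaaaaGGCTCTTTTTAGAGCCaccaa
Hist1h4c: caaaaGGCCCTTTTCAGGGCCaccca
Hist1h4d: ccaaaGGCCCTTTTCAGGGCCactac
Hist3h2a: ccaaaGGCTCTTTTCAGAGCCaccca
Positions are counted from 1 at the 5′ end of the consensus. Hist1h3e carries C10A and Hist2h2ac carries C10T. Both H4 genes shown carry T4C and A13G, a pair of changes that keeps the stem's bases complementary. The annotated transcript ran 11 bases past the stem-loop in Hist1h2ab, 57 in Hist2h2ac and 151 in Hist1h2ae, but 840 in Hist1h1c, 1153 in Hist1h1e, 770 in Hist1h4d and 1643 in Hist3h2a. In all, 22 members had at most 100 annotated bases after it and 19 had more than 100, and the 19 held 49.8% of all member UMIs.

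Linker promoters are shown for the motifs they hold beside core promoters. RefSeq promoters, on GRCm38.p6, were matched for 61 of 67 members, and 3 motifs were searched on both strands in the 200 bases before the start. AAACACA, the sequence known as the H1 box, was present in 5 of 6 linker and 3 of 55 core promoters, against 4.72% of 26964 other promoters. CCAAT was present in 6 of 6 linker and 44 of 55 core promoters (29.9% of others), and TATAAA in 4 of 6 and 22 of 55 (10.5% of others). The promoters of Hist1h1b (chr13:21780626-21780825, minus strand), Hist1h1e (chr13:23622559-23622758, minus strand), Hist1h1c (chr13:23738607-23738806, plus strand) and Hist1h1a (chr13:23763468-23763667, plus strand) are shown because these 4 linker genes span the range of cycling dependence described next. Capitals mark the 3 motifs on either strand.
Hist1h1b: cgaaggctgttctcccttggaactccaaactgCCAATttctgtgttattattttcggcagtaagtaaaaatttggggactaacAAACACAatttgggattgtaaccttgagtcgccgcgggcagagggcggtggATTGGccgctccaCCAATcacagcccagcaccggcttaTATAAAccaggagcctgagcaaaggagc
Hist1h1e: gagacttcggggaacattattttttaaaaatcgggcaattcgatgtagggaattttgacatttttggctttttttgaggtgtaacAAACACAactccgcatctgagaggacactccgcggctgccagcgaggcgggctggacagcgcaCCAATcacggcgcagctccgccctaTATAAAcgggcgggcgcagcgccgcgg
Hist1h1c: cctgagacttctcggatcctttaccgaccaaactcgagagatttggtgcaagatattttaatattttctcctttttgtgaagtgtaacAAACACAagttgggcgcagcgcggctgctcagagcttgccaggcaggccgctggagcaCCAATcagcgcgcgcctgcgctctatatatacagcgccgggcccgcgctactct
Hist1h1a: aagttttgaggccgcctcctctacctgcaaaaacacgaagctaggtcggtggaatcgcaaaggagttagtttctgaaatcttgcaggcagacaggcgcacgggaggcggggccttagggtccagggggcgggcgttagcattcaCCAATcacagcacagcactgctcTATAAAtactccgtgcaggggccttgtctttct
AAACACA begins 117 bases before the start in Hist1h1b, 115 in Hist1h1e and 112 in Hist1h1c, and Hist1h1a has no match in this window. Hist1h1c is the 1 of these 4 without TATAAA.

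Every member had at least 1 UMI, 58 had at least 200 and 4 had fewer than 10. Together they gave 555488 UMIs in the kept cells, of which the 6 linker genes contributed 38.1%, and the 10 most abundant members 70.4%. Levels below are UMIs per 1000000 UMIs of the same cells (counts per 1000000, CPM), a scale set by 3′ ends and not divided by transcript length, so that levels of different genes also reflect how well each 3′ end is captured. Of the 58 members with at least 200 UMIs, 56 had a higher level in cycling than in other cells, 28 more than 10-fold higher, with a median ratio of 8.91. These ratios pool all kept cells, and the cycling and the other cells differ in their makeup of classes. Cells with shared barcodes are among them, and without these the ratios summed over members were lower in PBS NK-like and monocyte/macrophage-like cells.

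Among the linker genes, the ratio of the level in cycling cells to that in other cells ran from 28.4 to 1.62. Hist1h1b, which encodes the H1f5 protein in RefSeq naming (chr13:21779883-21780625), was the most abundant member, with 81492 UMIs. Its level in cycling cells was 576, 631, 493 and 527 CPM and in other cells 15.5, 19.7, 26.5 and 17.4, a ratio of 37.2, 32.0, 18.6 and 30.3. The ratio was lowest in the anti-PD-1 library, where the level in other cells was highest. Of its 1282 UMIs in other cells of that library, 738 came from a class of barcodes with few UMIs, which held 3334 barcodes in anti-PD-1 and 377 to 981 in the other libraries. Within CD8 T-like cells the ratios were 42.9, 74.9, 51.2 and 41.0, with anti-PD-1 not the lowest. Hist1h1e (H1f4, chr13:23620629-23622558) had nearly as many UMIs, 80632, but was high in other cells too, at 104, 102, 88.5 and 122 CPM, and its ratios were 4.26, 4.37, 3.65 and 3.62. Hist1h1c (H1f2, chr13:23738808-23740367) had the lowest ratios of these genes, 1.68, 1.96, 1.502 and 1.36. Hist1h1a (H1f1) had ratios of 22.7, 19.7, 12.1 and 18.4 and Hist1h1d (H1f3) of 8.97, 10.2, 6.57 and 7.16. Thus Hist1h1b and Hist1h1a had the highest ratios and low levels outside cycling cells, while Hist1h1e and Hist1h1c had the lowest ratios and were high in other cells too. Hist1h1d lay between them in its ratio only. Its level outside cycling cells was low as well, at 8.17 CPM in regulatory T-like cells beside 14.9 for Hist1h1b. Hist1h1t, the testis linker histone, had 26 UMIs in all.

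Core members covered a wider range of ratios, and their family medians were 17.0 for H2A, 11.3 for H2B, 9.51 for H3 and 6.93 for H4. The highest ratios belonged to the H2A genes Hist1h2ah (59.2, on 534 UMIs), Hist1h2ab (59.0) and Hist1h2af (55.7). Hist1h2ab was at 151, 133, 118 and 53.4 CPM in cycling cells and at 2.09, 1.80, 2.69 and 1.02 in other cells, and in both states it was lowest in the combination library. Hist1h2ae, the core member with the most UMIs (52272), was at 491, 425, 367 and 213 in cycling cells, with ratios of 34.1, 40.0, 22.1 and 23.9. Hist1h2ap had a ratio of 27.5, Hist1h2bj, an H2B gene, 18.2, and the H3 genes Hist1h3c and Hist1h3e 43.1 and 7.55. Of the H4 genes, Hist1h4d had 8.28 and Hist1h4c 4.69, and Hist2h2ac, an H2A gene on chromosome 3, had 8.72.

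For 6 of the 58 members the ratio over all kept cells was under 2. The lowest was Hist3h2a, an H2A gene on chromosome 11 (chr11:58954685-58956830), at 5.48, 5.35, 4.17 and 4.55 CPM in cycling cells and 9.90, 9.83, 9.95 and 11.9 in other cells. Its ratio over all kept cells was below 1 in all 4 libraries (0.554, 0.545, 0.419 and 0.383), but within regulatory T-like cells it ran from 0.468 (combination) to 1.60 (PBS 2), and within CD8 T-like cells from 0.508 to 1.42 in the same libraries. Its neighbour Hist3h2ba, an H2B gene, had 0.972 and Hist4h4, an H4 gene on chromosome 6, 1.17. The other 3 were Hist2h2be (1.25), Hist1h1c (1.62) and Hist1h2bc (1.80). Within single classes several of them had a ratio above 2. Hist1h1c had 2.43 in CD8 T-like, 3.94 in regulatory T-like, 3.06 in monocyte/macrophage-like and 2.22 in CD45-negative cells, but 1.502 in NK-like cells. In CD8 T-like and regulatory T-like cells Hist1h2bc had 2.35 and 3.52, and Hist3h2ba 2.39 and 2.07. Of these 6, Hist3h2a, Hist3h2ba, Hist4h4 and Hist1h1c had a stem-loop followed by more than 100 annotated bases. Over the core members with at least 200 UMIs, the median ratio was 5.46 for those with such a long end, 17.0 for those with at most 100 bases after the stem-loop and 10.3 for those with no stem-loop found, which is a description of the annotation and not a test. The last group includes members with short annotated transcripts, whose stem-loop may lie past the annotated end.

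**Figure D1:**
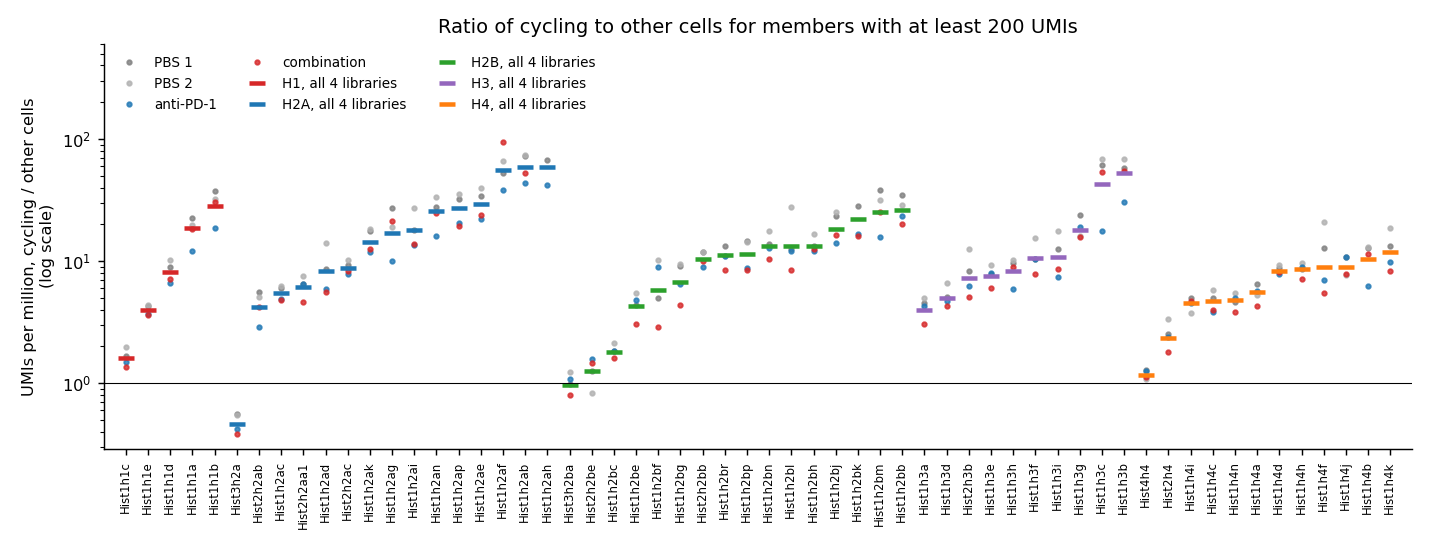
Ratio of the level (CPM) in cycling cells to that in other cells for each member with at least 200 UMIs, over all kept cells, on a log axis, by family. Dots are the libraries and dashes all libraries together. H2A members reach 59.2, the linker genes spread from 1.62 to 28.4, and Hist3h2a lies below 1 in every library over all kept cells.

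Among the 5 classes with at least 39 cycling cells in every library, leaving aside mixed clusters, the summed core level in cycling cells was highest in CD8 T-like and regulatory T-like cells and lowest in CD45-negative cells. In CD8 T-like cells (261, 293, 332 and 555 cycling cells) it was 4416, 4528, 3722 and 2191 CPM. In regulatory T-like cells (52, 71, 39 and 49 cells) it was 5377, 3198, 4899.9 and 1827, with the PBS pair far apart. NK-like cells gave 3261, 2709, 2203 and 1649. Monocyte/macrophage-like cells gave 2737, 3073, 2411 and 1497 and CD45-negative cells 2290.4, 1505, 1722 and 1195. In each of the 5 classes the combination library was the lowest of the 4 with all cells kept. Without shared barcodes it was still the lowest in CD8 T-like (4673, 3321, 3739 and 2194) and regulatory T-like cells (4857, 3394, 4899.9 and 1775), but it lay between the PBS libraries in NK-like cells (2454, 1146, 2204 and 1649) and above both in monocyte/macrophage-like cells (1408, 1171, 2414 and 1499.5). Nearly all PBS cells of the CD45-negative class had such barcodes, so that no value without them could be given there. In the split by phase described below, the cycling CD8 T-like cells left were 116, 110, 234 and 398 S-leaning and 43, 36, 90 and 151 G2/M-leaning. The cycling regulatory T-like cells left were 30, 35, 21 and 32 S-leaning and 12, 14, 18 and 16 G2/M-leaning. The PBS libraries thus lost a larger part of these cycling cells than the antibody libraries did. The order of classes may depend on depth. The cycling rule counts UMIs, so deep cells meet it at a lower rate, and clusters of the CD45-negative class had a median of at least 10000 UMIs. With 300 CPM required as well, PBS ratios of cycling to other cells rose in NK-like, monocyte/macrophage-like and CD45-negative cells.

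Summed linker levels in cycling cells did not follow that order of libraries. They were 1994, 2365, 1732 and 1996 CPM in CD8 T-like cells, where PBS 1 and the combination differed by less than PBS 1 and PBS 2. The combination was the highest of the 4 in NK-like cells (1547, 1613, 1138 and 1638) and the lowest in regulatory T-like cells (2406, 1803, 1865 and 1662). It lay between the extremes in monocyte/macrophage-like cells (1278, 1567, 899 and 1071) and in CD45-negative cells (1048, 865, 654 and 934), with anti-PD-1 the lowest in both. Without shared barcodes the combination was the highest in monocyte/macrophage-like cells (759, 725, 899 and 1074).

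**Figure D2:**
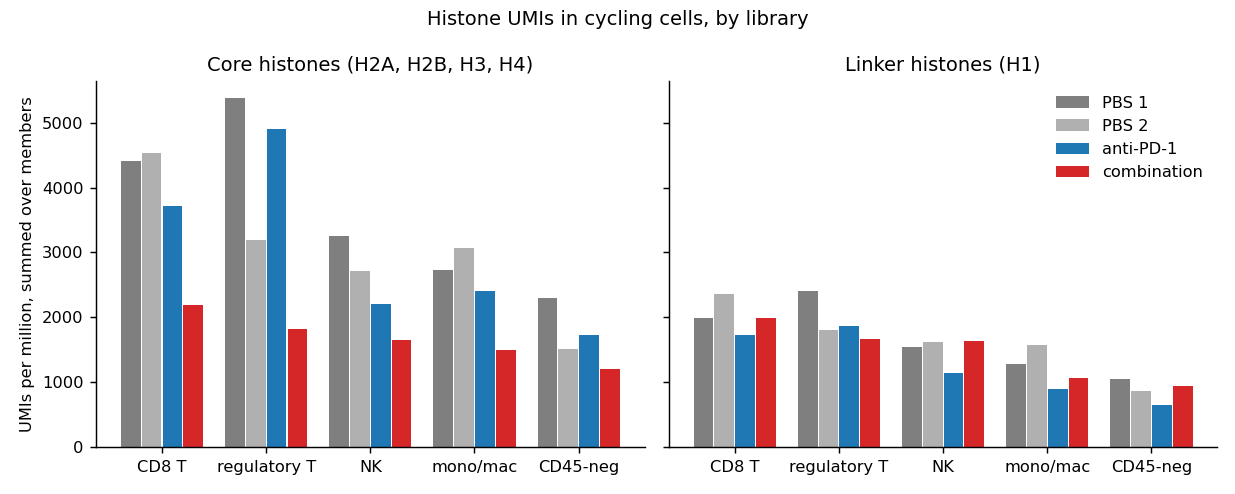
Summed core and linker (H1) histone levels, in CPM, in cycling cells of 5 classes and 4 libraries (bars from 0, 1 bar per library, no error bars because each bar is 1 library). With all cells kept, core levels are lowest in the combination in every class (without shared barcodes in CD8 T-like and regulatory T-like cells, but not in NK-like or monocyte/macrophage-like cells), at 2191 against 4416 and 4528 in the PBS libraries in CD8 T-like cells, while linker levels there are 1996 against 1994 and 2365.

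The share of linker genes among all member UMIs was highest in the combination in cycling cells of each class. CD8 T-like cells had 31.1, 34.3, 31.8 and 47.7%, and the exact 95% binomial interval of the combination was 47.2 to 48.1%, an interval that covers counting error only. In regulatory T-like cells it was 30.9, 36.1, 27.6 and 47.6%, in NK-like cells 32.2, 37.3, 34.1 and 49.8%, in monocyte/macrophage-like cells 31.8, 33.8, 27.2 and 41.7% and in CD45-negative cells 31.4, 36.5, 27.5 and 43.9%. In each class the PBS libraries differed from each other by less than the combination differed from either, and anti-PD-1 was the lowest of the 4 in 3 of these classes. Without shared barcodes the shares were 30.1, 37.0, 31.7 and 47.6% in CD8 T-like cells, 33.4, 33.8, 27.6 and 47.9% in regulatory T-like cells, 32.6, 40.0, 34.0 and 49.8% in NK-like cells and 35.0, 38.2, 27.1 and 41.7% in monocyte/macrophage-like cells, with the combination again the highest.

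Other cells are all those under the cycling threshold, which cells with few UMIs may not reach, so cycling cells can be among them. In the 4 immune classes, these other cells held a larger linker share than cycling cells of the same library. It was 46.8, 49.3, 42.2 and 60.4% in CD8 T-like cells, in regulatory T-like cells 55.8, 63.6, 43.8 and 65.9% and in NK-like cells 55.0, 60.0, 49.8 and 65.5%. In monocyte/macrophage-like cells it was 39.0, 40.8, 30.8 and 44.0%. The combination was the highest in these 4 classes, but not in other CD45-negative cells, at 32.9, 35.4, 20.6 and 30.8%. Core levels in other cells were far below those of cycling cells and lowest in the combination in the 4 immune classes: 282, 224, 252 and 202 CPM in CD8 T-like cells, 171, 128, 173 and 112 in regulatory T-like cells, 264, 232, 248.8 and 191 in NK-like cells and 205, 178, 198 and 167 in monocyte/macrophage-like cells. CD45-negative cells gave 233, 199, 225 and 246, and neutrophil-like cells, which no longer divide, 268, 292, 266 and 245. The level in neutrophil-like cells was mostly H2B (153, 151, 193 and 187), and their H3 level was 10.7, 3.11, 3.86 and 2.13. Conventional CD4 T-like cells that met the cycling rule (13, 11, 7 and 19 cells) had core levels of 215, 282, 380.1 and 254, beside 227, 183, 218 and 174 in their other cells.

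**Figure D3:**
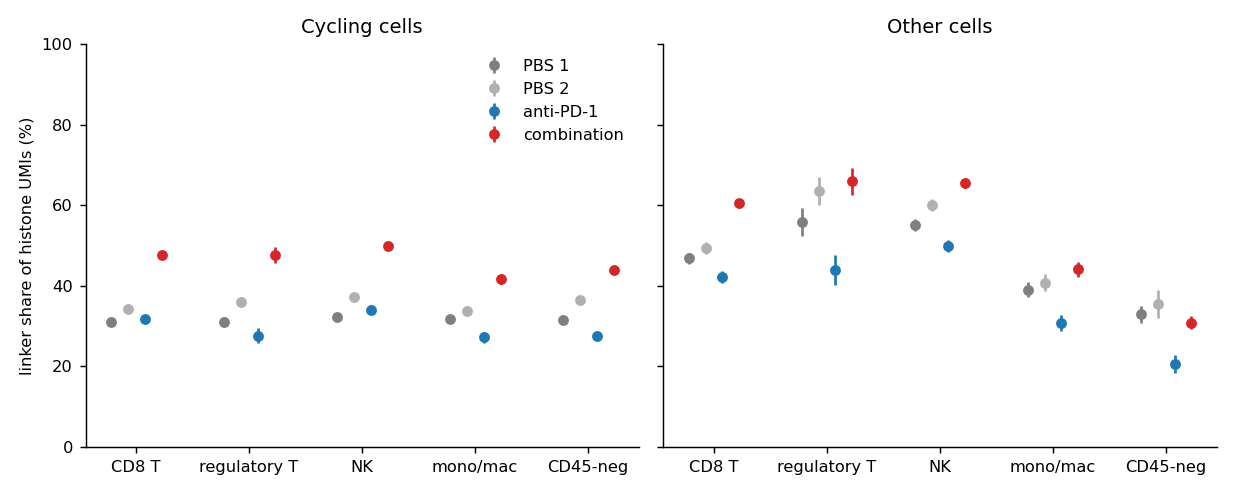
Share of linker genes among all member UMIs, in percent, in cycling and other cells of 5 classes, 1 point per library with its exact 95% binomial interval (counting error only). In cycling CD8 T-like cells the combination lies at 47.7% and the other libraries between 31.1 and 34.3%, and in other CD45-negative cells the combination lies within the range of the PBS and anti-PD-1 libraries.

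Member by member, the libraries were compared with edgeR's quasi-likelihood test on UMI sums per library, in each of 4 classes and separately for cycling and other cells, with Benjamini-Hochberg adjustment over all genes tested and a threshold of 0.05. Values per library in what follows are CPM after TMM scaling, log2 fold changes are given with their standard error for the main members, and called means past that threshold. The test rests on 1 residual degree of freedom, so its p-values measure only the spread between the 2 PBS libraries, which may be technical.

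In cycling CD8 T-like cells, many core histone genes were lower in the combination than in PBS, while 1 of 5 linker genes was. The difference between core and linker genes was not itself tested. Of 57 members tested, 27 were called lower and 0 higher, against 0.549% of all 12214 genes called lower. The median log2 fold change was -1.04 over the 52 core members and -0.30 over the 5 linker members, beside -0.01 over all genes. All 52 core values were negative, and 26 of them were called. Haemoglobin RNA (Hbb-bs), a sign of red cell RNA, stood at 0, 193, 0 and 0 CPM in these cells, and its part in the results was not tested.

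Of 15 H2A genes tested, 6 were called lower. Hist1h2ab was at 222, 231, 209.2 and 78.0 CPM, a log2 fold change of -1.54 ± 0.14 (SE) with an adjusted p of 2.6e-07 by edgeR, and the combination lay far below the other 3 libraries, which were close together. Hist1h2ae was at 807, 806, 679 and 343 (-1.23 ± 0.17 (SE), edgeR adjusted p = 0.00014). Of the other H2A genes, Hist1h2ac (-1.39), Hist1h2ai (-1.32), Hist1h2ak (-0.86) and Hist2h2aa1 (-0.84) were called lower. Hist1h2ap, the second most abundant H2A gene, was at 712, 321, 326 and 213 and was not called (edgeR adjusted p = 0.88). Its PBS libraries differed from each other by more than 2-fold, and that split of PBS 1 from PBS 2 recurred in regulatory T-like (851, 248.7, 318 and 189), monocyte/macrophage-like (348, 169, 139 and 91.8) and CD45-negative cells (278, 74.6, 117 and 77.6).

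Of 15 H2B genes tested in CD8 T-like cells, 11 were called lower. Hist1h2be was at 82.6, 100.5, 81.9 and 41.7 (-1.14 ± 0.15 (SE), edgeR adjusted p = 7.5e-05) and Hist1h2bj at 148, 181, 172 and 86.5 (-0.93). Hist1h2bc was at 32.2, 38.5, 25.3 and 15.5 and was called too (-1.20). The other 8 were Hist1h2bb, Hist1h2bg, Hist1h2bh, Hist1h2bm, Hist1h2bn, Hist1h2bp, Hist1h2br and Hist2h2bb, with log2 fold changes from -1.76 (Hist1h2bp) to -0.74 (Hist1h2bm). All 11 were lower in the combination than in either PBS library.

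Of 10 H3 and 12 H4 genes tested, 4 and 5 were called lower, so that 13 of the 22 were not called. Hist1h3e was at 157, 189, 202 and 83.1 (-1.06 ± 0.14 (SE), edgeR adjusted p = 0.00011), and Hist1h3f (-1.38), Hist1h3b (-0.999) and Hist1h3i (-0.78) were called lower as well. Hist1h3c was at 233, 324, 184 and 152 and was not called (-0.88, edgeR adjusted p = 0.066). Hist1h4c was at 128, 124, 97.0 and 55.3 (-1.19 ± 0.13 (SE), edgeR adjusted p = 5.5e-06), and the most abundant H4 gene, Hist1h4d, at 515, 548, 641 and 322 (-0.72, edgeR adjusted p = 0.019). Hist1h4h (-1.02), Hist1h4a (-1.35) and Hist1h4k (-1.23) completed the H4 genes called. Of the H4 genes not called, Hist1h4i had the value nearest 0, at 27.9, 29.5, 35.1 and 26.6 (-0.11 ± 0.17 (SE), edgeR adjusted p = 0.91). Among core genes with a long end after the stem-loop 9 of 13 were called, with at most 100 bases 8 of 19, and with no stem-loop found 9 of 20, and the medians were -1.06, -0.999 and -1.13.

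Of the 5 linker genes tested in the same cells, 4 were not called. Hist1h1b was at 877, 1045, 943 and 899.6 CPM (-0.10 ± 0.18 (SE), edgeR adjusted p = 0.93) and Hist1h1e at 709.7, 740.4, 573 and 721 (-0.01 ± 0.16 (SE), edgeR adjusted p = 1.0). For both genes the combination lay between PBS 1 and PBS 2. Hist1h1c was at 214, 261, 159 and 193 (-0.30) and Hist1h1d at 122, 168, 112 and 109 (-0.42), neither called. Hist1h1a alone was called, at 69.7, 76.6, 46.6 and 45.3 (-0.69 ± 0.14 (SE), edgeR adjusted p = 0.013), and both antibody libraries were below both PBS libraries. Without shared barcodes 21 members were called in these cells, and with DESeq2 13, none of them higher.

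**Figure D4:**
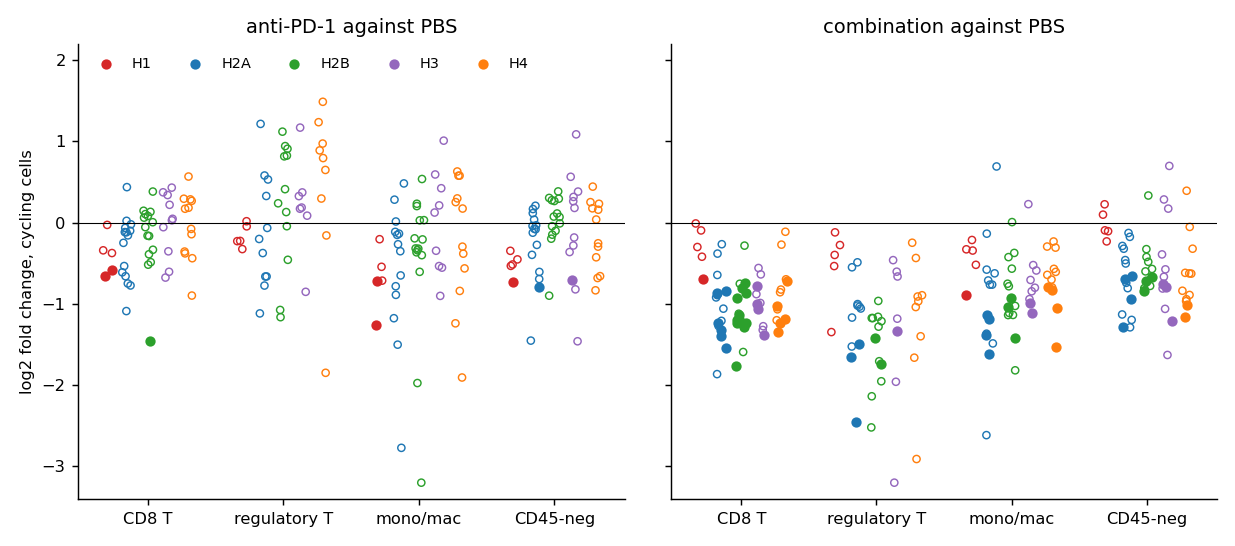
Log2 fold change of each member in cycling cells, for anti-PD-1 and for the combination, each against PBS, in 4 classes. Filled points have an edgeR adjusted p under 0.05, and values beyond the lower end of the axis are drawn at that end. In CD8 T-like cells all 52 core members lie below 0 for the combination, 26 of them filled, while Hist1h1b and Hist1h1e lie at -0.10 and -0.01.

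Cycling regulatory T-like cells were few, 39 to 71 per library, and showed lower core levels in the combination with a wide PBS spread. Of 44 members tested, 6 were called lower and 0 higher, against 0.0966% of all genes called lower. The median was -1.17 over 39 core and -0.40 over 5 linker members, beside -0.02 over all genes. Hist1h2ae was at 1084, 542, 704 and 257 (-1.65 ± 0.37 (SE), edgeR adjusted p = 0.0084), with PBS 1 about 2-fold above PBS 2. Hist1h2ab was at 321, 142, 217 and 80.4 and Hist1h2an at 52.8, 46.8, 22.7 and 8.93, the latter with the largest fold of the 6 (-2.45 ± 0.57 (SE)). Hist2h2bb (-1.74), Hist1h3e (-1.33) and Hist1h2be (-1.42) were the others. No linker gene was called: Hist1h1b was at 1039.6, 809, 935 and 701 (-0.40) and Hist1h1a at 64.2, 58.1, 51.9 and 23.8 (-1.35). The S-phase list had a median of -0.45 over its 33 genes, with 0 called by edgeR and 7 at an unadjusted p under 0.05, and its part in the result was not tested. The calls ended with DESeq2 (0 members, 7 at an unadjusted p under 0.05) and with a cycling threshold of 5 UMIs (0 members). Without shared barcodes 5 members were called. When predicted doublets were kept and the cells clustered anew, this class held 15, 18, 4 and 21 cycling cells, and no fit was made.

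In cycling monocyte/macrophage-like cells 14 of 55 members were called lower in the combination than in PBS and 0 higher, against 1.13% of all genes called lower. The medians were -0.79 over 50 core and -0.34 over 5 linker members, beside -0.01 over all genes. Hist1h2ab was at 169, 184, 147 and 57.5 (-1.62 ± 0.16 (SE), edgeR adjusted p = 3.5e-08) and Hist1h2ae at 479.6, 475, 430.3 and 209.7 (-1.19), in both cases with the 3 other libraries close together. Hist1h4d was at 341, 379.9, 444 and 208 (-0.79). The other core members called were Hist1h2ai, Hist2h2aa1, Hist1h2be, Hist1h2bj, Hist1h2bn, Hist1h3e, Hist1h3f, Hist1h4c, Hist1h4h and Hist1h4n, from -1.53 (Hist1h4n) to -0.83 (Hist1h4c). Of the linker genes, Hist1h1a was called (65.4, 88.8, 32.3 and 41.7, -0.89), with anti-PD-1 lower still. The S-phase list had a median of -0.33, with 2 of 33 genes called lower (Hells and Pola1), and its part in the result was not tested.

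These calls ended when cells with shared barcodes were left out. Without them the cycling cells numbered 45, 31, 71 and 97, the core level was 1408, 1171, 2414 and 1499.5 CPM, and edgeR called 0 members, with 4 higher and 0 lower at an unadjusted p under 0.05. The combination then lay above both PBS libraries, and the core median was 0.11. Keeping each shared barcode only in the library where it was deepest left 10 members called in monocyte/macrophage-like cells, a cycling threshold of 5 UMIs left 2, and DESeq2 called 3.

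In cycling CD45-negative cells 12 of 58 members were called lower in the combination than in PBS and 0 higher, against 0.629% of all genes called lower. The medians were -0.67 over 53 core and -0.09 over 5 linker members, beside -0.01 over all genes. Hist1h3e was at 63.7, 46.1, 62.8 and 32.7 (-0.76 ± 0.17 (SE), edgeR adjusted p = 0.023) and Hist1h4c at 62.8, 42.9, 33.8 and 26.5 (-1.01). Hist1h2an was at 37.9, 35.0, 21.04 and 18.97 (-0.94 ± 0.16 (SE), edgeR adjusted p = 0.00011), with both antibody libraries below both PBS libraries. The rest were Hist1h2ah, Hist1h2ak, Hist2h2aa1, Hist1h2be, Hist1h2bh, Hist1h2bn, Hist1h3f, Hist1h3i and Hist1h4b, from -1.29 (Hist1h2ah) to -0.66 (Hist2h2aa1). Hist1h4i (69.9, 53.2, 84.3 and 81.3) and Hist1h2bc (58.5, 50.6, 71.5 and 69.0) were above 0 (0.39 and 0.33) and were not called. Hist1h1b was at 495, 401, 353 and 420.0 and Hist1h1e at 375, 289, 229.9 and 356, neither called. Nearly all PBS cells of this class had shared barcodes, so that no fit without them was possible, and DESeq2 called 0 members, with 11 lower at an unadjusted p under 0.05.

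Across the 4 classes, Hist1h2be and Hist1h3e were called lower in the combination against PBS in every class, and Hist1h2ab, Hist1h2ae, Hist1h2bn, Hist1h3f, Hist1h4c and Hist2h2aa1 in 3. Another 10 members were called in 2 classes and 13 in 1. The linker genes Hist1h1b, Hist1h1c, Hist1h1d and Hist1h1e were called in none. These tallies hold for edgeR with all cells kept: DESeq2 called 0 members in regulatory T-like and CD45-negative cells, and without shared barcodes edgeR called 0 in monocyte/macrophage-like cells, where Hist1h2be then had a log2 fold change of 0.24. Shared sequence also limits what the recurrence of these genes can show. Of the 31-base stretches near the transcript end of Hist1h3e, 87.0% also occur in other genes, most often in Hist1h3f. Hist1h2be overlaps Hist1h1e on the same strand. Values of Hist1h3e and Hist1h2be as single genes are therefore uncertain. The 4 comparisons share neither cells nor sums, but the cells come from the same 4 libraries.

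Compared with anti-PD-1 alone, the combination was again lower for each core gene called. The counts were 16 lower of 57 in CD8 T-like cells (0.377% of all genes called lower), 11 of 44 in regulatory T-like cells (0.254%), 5 of 55 in monocyte/macrophage-like cells (1.2%) and 6 of 58 in CD45-negative cells (0.622%). Hist1h3e was called in all 4, with log2 fold changes of -1.28, -1.71, -1.20 and -0.94, and so was Hist1h4d, at -0.99, -1.56, -1.09 and -0.87. In regulatory T-like cells Hist2h2bb was at 77.01, 64.6, 153 and 20.8 (-2.86 ± 0.47 (SE), edgeR adjusted p = 6.6e-06) and Hist2h2ac at 187, 121, 227 and 72.9 (-1.64), with anti-PD-1 the highest library for both. Hist1h3a was called in CD8 T-like cells (-0.99). One member was higher: Hist1h1c in CD45-negative cells, at 78.9, 63.3, 52.2 and 83.6 (0.68 ± 0.17 (SE), edgeR adjusted p = 0.022), where 1.2% of all genes were called higher. This comparison shares the combination library with the one against PBS, and it sets 1 library against 1, with the spread taken from the PBS pair. With DESeq2 the calls numbered 6, 0, 3 and 0 in the order of classes above, and without shared barcodes edgeR called 0 in monocyte/macrophage-like cells.

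Anti-PD-1 against PBS gave few calls, and these included linker genes. Lower calls numbered 3 of 57 members in CD8 T-like cells, with 0 higher (0.483% of all genes lower): Hist1h1a (-0.65 ± 0.16 (SE)), Hist1h1c (-0.59 ± 0.15 (SE)) and Hist1h2bp (-1.45, at 14.1, 12.8, 4.88 and 3.94). In monocyte/macrophage-like cells 2 of 55 were called lower (1.51%), Hist1h1a (65.4, 88.8, 32.3 and 41.7, -1.26) and Hist1h1b (627, 798, 433 and 498, -0.72). In CD45-negative cells 3 of 58 were called lower (1.17%), Hist1h1a (-0.73), Hist1h2an (-0.80) and Hist1h3c (118, 98.2, 66.4 and 82.7, -0.71). In regulatory T-like cells edgeR called 0 of 44 in either direction (0.0483% of all genes lower), and 9 members had an unadjusted p under 0.05, all of them higher. DESeq2 called 1 member in monocyte/macrophage-like cells and 0 in each of the other 3 classes. The median over core members was -0.09, 0.30, -0.28 and -0.04 in CD8 T-like, regulatory T-like, monocyte/macrophage-like and CD45-negative cells. Over linker members it was -0.37, -0.22, -0.71 and -0.51. In monocyte/macrophage-like cells these medians changed sign without shared barcodes, to 0.94 for core and 0.38 for linker members, and 7 members were called higher.

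Outside cycling cells at most 3 members were called in any comparison, and in several the count was near or below the share of all genes called. The counts are therefore not read as a result about the members. Among these few calls, Hist1h1e and Hist1h4d recurred. A list of G2/M genes had medians there from -0.37 (CD45-negative cells, combination against anti-PD-1) to 1.05 (CD45-negative cells, anti-PD-1 against PBS). Its gene Birc5 was called higher in the latter, and in CD8 T-like cells for the combination against PBS (list median 0.50). The part of such differences in the results was not tested. In CD8 T-like cells Hist1h1e was at 126, 109, 99.5 and 166 CPM and was higher in the combination than in PBS (0.50 ± 0.12 (SE), edgeR adjusted p = 0.0022), while Hist1h4d (50.7, 40.6, 51.6 and 31.3, -0.54) and Hist1h4h (11.1, 7.63, 5.49 and 4.92, -0.93) were lower, which makes 3 of 40 members against 5.57% of all genes. Against anti-PD-1, Hist1h1e (0.74) and Hist1h1c (91.3, 75.9, 64.5 and 103, 0.68) were higher and Hist1h4d lower (-0.72), again 3 of 40 (1.93%), and anti-PD-1 against PBS called 0 of 40 (4.2%) with edgeR, 2 higher and 5 lower at an unadjusted p under 0.05, and 0 with DESeq2. Hist1h1e overlaps Hist1h2be, so its value is uncertain here and in the other classes below. These 6 calls in CD8 T-like cells were lost without shared barcodes (0 and 0), with DESeq2 and with no filter on low counts.

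In other monocyte/macrophage-like cells Hist1h1e was at 64.6, 57.0, 38.7 and 58.8, lower in anti-PD-1 than in PBS (-0.65, 1 of 35 members against 3.72% of all genes). Hist1h4d was at 30.2, 26.3, 32.7 and 17.0, lower in the combination than in PBS (-0.73, 1 of 35, 1.53%), and against anti-PD-1 Hist1h4d was lower (-0.94) and Hist1h1e higher (0.60), 2 of 35 (1.49%). In other CD45-negative cells Hist1h1e was at 62.8, 66.4, 28.9 and 62.3, so that anti-PD-1 stood apart from the other 3 libraries: it was lower against PBS (-1.15 ± 0.19 (SE), 1 of 25, 2.51%), and the combination was higher than anti-PD-1 (1.11, 1 of 25, 0.242%). Hist1h2bc was higher there in the combination than in PBS (67.7, 49.4, 83.7 and 101.3, 0.77) and Hist1h4d lower (37.3, 32.4, 30.5 and 19.5, -0.85), 2 of 25 (2.35%). With DESeq2 0 members were called in these cells of either class. The monocyte/macrophage-like calls ended with no filter on low counts (0 in each comparison) and, for the combination, without shared barcodes (0 and 0), and the CD45-negative calls ended with the cycling threshold of 3 UMIs and 300 CPM (0 in each comparison) and, for the combination, with predicted doublets kept or sums thinned (0 and 0). In other regulatory T-like cells edgeR called 0 of 21 members in each comparison (all genes 0.00935% for anti-PD-1 against PBS, 0.0187% for the combination against PBS and 0% between the treatments). There 5, 0 and 4 members had an unadjusted p under 0.05, and DESeq2 also called 0.

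Since histone mRNA follows S phase, cycling cells were split by which of 2 lists gave them more UMIs, 33 genes of S phase or 25 of G2 and mitosis. Cells with equal UMIs of both lists were counted as S-leaning. The S-leaning share was 75.1, 74.4, 72.0 and 72.6% in CD8 T-like cells, and 72.7, 83.8, 73.2 and 68.0% in CD45-negative cells. It was 65.0, 61.2, 48.6 and 54.1% in monocyte/macrophage-like cells, lower in both antibody libraries than in PBS. The core level of S-leaning CD8 T-like cells was 3517, 3558, 3366 and 1754 CPM and that of G2/M-leaning cells 7160.4, 7171, 4559 and 3352. The combination was the lowest in both. It was also the lowest in both parts in regulatory T-like cells, with 4495, 2693, 4036 and 1265 and 7338, 4612, 5927 and 2780.3. The same order held in NK-like cells (2341, 2364, 1863 and 1578, and 5998, 3601, 3539 and 1996), monocyte/macrophage-like cells (2084, 2630.5, 1539.6 and 1024, and 3941, 3739, 3235 and 2109) and CD45-negative cells (1853, 1401, 1474 and 851, and 3229, 2009, 2326 and 1813). In each of the 5 classes and 4 libraries the G2/M-leaning cells had the higher core level. The split therefore did not single out the cells with the most histone mRNA, and S-leaning names a list score, not a measured phase. Without shared barcodes the combination was still the lowest in both parts in CD8 T-like (3285, 2828, 3376 and 1754, and 8548, 4890.5, 4597 and 3359.6) and regulatory T-like cells (4722, 2460.3, 4036 and 1155, and 5201, 5566, 5927 and 2780.3). It was not the lowest in NK-like (1932, 1173, 1864 and 1578, and 4854, 993, 3539 and 1996) or monocyte/macrophage-like cells (1296, 787, 1539.6 and 1024, and 1626, 1612, 3243 and 2119), and in PBS 2 the S-leaning NK-like cells, beside 6 G2/M-leaning ones, had the higher level. The summed level of the S-phase list itself in cycling CD8 T-like cells was 4347, 4345, 4111 and 4139 CPM, within a narrow range.

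**Figure D5:**
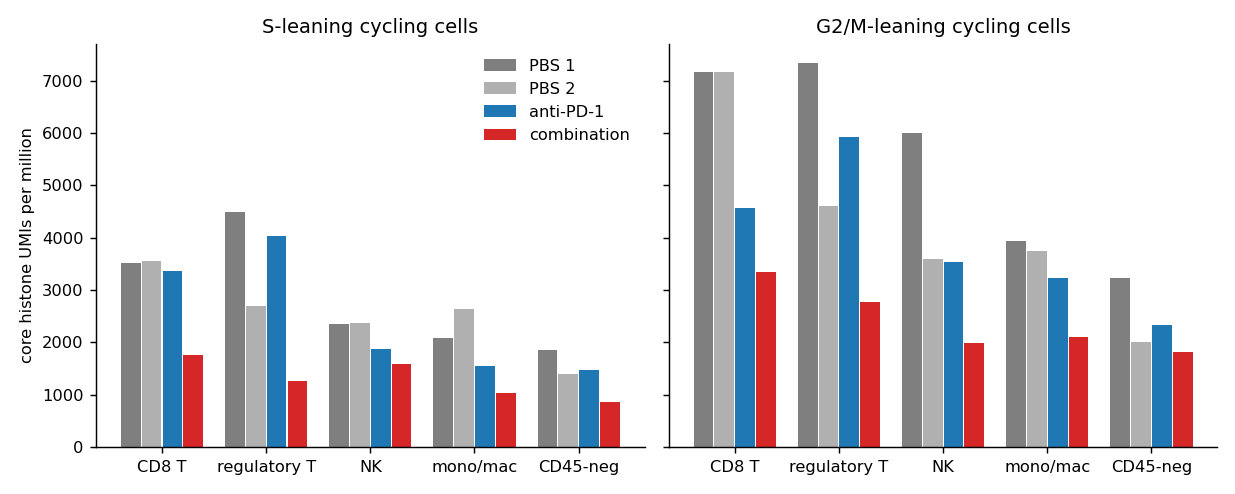
Summed core histone level, in CPM, in S-leaning and G2/M-leaning cycling cells of 5 classes, as bars from 0 with 1 bar per library and no error bars. In CD8 T-like cells the combination is lowest in both (1754 and 3352), and anti-PD-1 lies near PBS in S-leaning cells (3366) but below it in G2/M-leaning cells (4559 against 7160 and 7171).

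Other genes of histone supply and of the cycle were compared between the combination and PBS in cycling CD8 T-like cells. None of the 10 replication-independent histones, 22 genes of histone mRNA processing and transcription, 21 histone chaperones, 33 S-phase genes or 25 G2/M genes tested was called by edgeR, while 3, 1, 0, 2 and 2 had an unadjusted p under 0.05. The list medians were 0.13, -0.05, -0.06, -0.07 and 0.03. Slbp, the stem-loop binding protein, was at 208.5, 194, 186 and 182 (-0.14 ± 0.13 (SE), edgeR adjusted p = 0.82) and Npat at 105, 98.3, 82.8 and 100.9 (-0.01). The U7 protein Lsm10 was at 10.7, 12.7, 17.1 and 13.6, and the H3-H4 chaperone Asf1b at 66.7, 66.2, 72.2 and 64.7. Lsm10 was highest in anti-PD-1, and for Asf1b the 4 libraries were close together. H2afz, a replacement H2A that is made outside S phase too, was at 1117, 1052, 1476 and 1174, highest in anti-PD-1. Of the genes that defined the cells, Mki67 was at 695, 666, 592 and 585 and Top2a at 908, 876, 956 and 869, neither called.

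The same lists gave 0 calls in regulatory T-like cells. In monocyte/macrophage-like cells 1 of 21 chaperones, Daxx, was higher (0.94). Lower were 2 of 33 S-phase genes, Hells (-0.76) and Pola1 (-0.52), and 1 of 25 G2/M genes, Ckap2l (-0.70), where 2.97% of all genes were called. In CD45-negative cells Cdk1, the kinase that drives mitosis, was higher (0.74), 1 of 25 G2/M genes, where 1.49% of all genes were called. Anti-PD-1 against PBS called the replacement histone H2afj higher in CD8 T-like (0.54), monocyte/macrophage-like (0.50) and CD45-negative cells (0.69). With it rose the mitotic genes Birc5 (0.60 and 0.65) and Ube2c (0.49 and 0.89) in the first 2 of these classes, H2afz in monocyte/macrophage-like cells (0.46) and Mcm7 in CD45-negative cells (0.54), while Pola1 (-0.49) fell in monocyte/macrophage-like and Npat (-0.55) in CD45-negative cells. Between the combination and anti-PD-1, H2afj (-0.61), Birc5 (-0.62), Ube2c (-0.80), Snrpd3 (-0.73) and Snrpg (-0.56) were lower in monocyte/macrophage-like cells. In CD45-negative cells Cdk1 (0.85) and Snrpf (0.79) were higher and Chaf1b (-0.73), Mcm5 (-0.58) and Mcm7 (-0.58) lower. For anti-PD-1 against PBS, 2.01% of all genes were called in CD8 T-like, 4.79% in monocyte/macrophage-like and 2.63% in CD45-negative cells. Between the treatments 1.91% were called in monocyte/macrophage-like and 1.82% in CD45-negative cells. These lists were examined only with edgeR and all cells kept, and not with DESeq2 or without shared barcodes.

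Histone genes are near copies of one another, which limits what single members can show. For 49 of the 67 members, more than 10% of the 31-base stretches in the last 500 transcript bases also occur in other genes, so that reads could be split between copies or dropped. Hist1h1e overlaps Hist1h2be on the same strand and shares 99.1% of its stretches with it, and Hist1h2ap shares 93.4% of its stretches, most with Hist1h2ao. Values of such members are uncertain. Of the 11 core members tested in CD8 T-like cells with at most 10% shared, Hist1h4c and Hist1h4d among them, 6 were called lower in the combination, with a median of -0.89. Without those that overlap a gene on their own strand, Hist1h2be among them, 5 of 9 were called, with a median of -0.82. Of the 41 with more, 20 were called, with a median of -1.06. The 4 linker members with at most 10% shared had a median of -0.36. In all, 6 members overlap a gene on the other strand, Hist2h2bb among them. Hist2h2bb and Hist3h2a also overlap another gene on their own strand.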

How the data were processed

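The deposited values were UMI counts per gene and cell barcode in 4 libraries. Cell Ranger 3.0.2 with mm10 is listed in the submitters' processing notes, but per the file headers version 7.1.0 of that program produced the matrices. The handling of introns in counting is not stated there. Animals were pooled before sorting, per the labels' protocols. Annotated gene models were GENCODE M21 (GRCm38), and promoters came from RefSeq.

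A barcode entered with 200 or more detected genes and less than 15% of its UMIs from mitochondrial genes. An automatic doublet caller marked at most 0.0233% of a library and so did not work, and barcodes were instead removed by doublet score at 0.8% per 1000 barcodes. Cells were clustered (scanpy 1.11.5, igraph 0.11.9) and classes named from marker genes. Raw UMIs were summed per library, class and state and tested with edgeR 4.0.16 (quasi-likelihood test, TMM, robust, genes passing a minimum count of 10), fitted on all 4 libraries as 3 groups, in R 4.3.3. Benjamini-Hochberg adjustment ran over all genes of a fit, in 24 tests of a class, state and comparison. The step was also run on simulated counts that held no library effect. That run cannot speak to the use of 1 library per treatment. DESeq2 1.42.0, other cycling thresholds, no filter, doublets kept, thinning, omission of each PBS library and 2 treatments of shared barcodes were the alternatives. CD8 T-like, regulatory T-like, monocyte/macrophage-like and CD45-negative cells were tested, and NK-like cells are given by levels only.

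Members and lists were chosen with earlier results of these data known. Named genes were the linker members with at least 10 UMIs, the 10 most abundant core members, every member called, the 3 highest and 3 lowest ratios of cycling to other cells, and up to 5 genes of each other list with those called. Hist1h2ao, Hist1h4i and Hist2h2be, and Slbp, Npat, Lsm10 and Asf1b for their known roles, are named outside that rule and after their values were seen. Binomial intervals are exact at 95%, and UMI intervals cover counting error only. Depth was 78648222 to 142600208 UMIs per library.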

Additional observations from a re-analysis of the deposited data

How the results depend on the processing

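Each test rested on 1 residual degree of freedom, and every treatment had 1 library, so that the results describe these libraries. No paired analysis was possible because only the PBS group carries replicate numbers. Leaving out a PBS library leaves no residual degree of freedom, so those settings gave values with no test. DESeq2 moved 19 of 24 counts of members called past 1.5 times, and leaving out shared barcodes 8 of 18. Core medians changed sign in 2 of 9 comparisons without shared barcodes and in 0 of 12 with DESeq2. Both treatments of shared barcodes were chosen after seeing the data. With predicted doublets kept the cells were clustered anew, and cycling regulatory T-like cells then numbered 15, 18, 4 and 21 (52, 71, 39 and 49 as reported). That fit, and those without shared barcodes in CD45-negative cells, were not run because a library held fewer than 20 cells. The causes of the differences below were not tested.

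With DESeq2 and its size factors, cycling cells gave 0 called members in CD45-negative cells for anti-PD-1 against PBS, the combination against PBS and the combination against anti-PD-1 (3, 12 and 7 with edgeR), and 0, 13 and 6 in CD8 T-like cells (3, 27 and 16). The same comparisons gave 1, 3 and 3 in monocyte/macrophage-like cells (2, 14 and 5). The combination gave 0 against PBS and 0 against anti-PD-1 in regulatory T-like cells (6 and 11). Outside cycling cells DESeq2 called 0 members in every class and comparison.

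With 2 UMIs as the cycling threshold, the 3 comparisons in the same order called 10, 20 and 12 members in cycling CD45-negative cells, anti-PD-1 against PBS called 5 in cycling CD8 T-like cells, and other CD8 T-like cells gave 1 and 1 for the combination against PBS and against anti-PD-1 (3 and 3). The ratio of cycling to other cells in NK-like cells (mean of PBS) fell to 9.47 for core (12.0) and 3.73 for linker genes (4.71). With 5 UMIs, cycling CD45-negative cells gave 7, 20 and 11, cycling monocyte/macrophage-like cells 0, 2 and 0, and cycling regulatory T-like cells 0 against PBS and 5 against anti-PD-1 for the combination. Other cells then gave 2 in CD45-negative cells for anti-PD-1 against PBS, 2 in monocyte/macrophage-like cells for the combination against PBS, and 2 and 2 in regulatory T-like cells for anti-PD-1 against PBS and the combination against anti-PD-1. The ratios were 14.4 (core) and 5.72 (linker) in NK-like cells, 18.9 and 13.9 in monocyte/macrophage-like cells (15.3 and 11.3), and 9.61 for linker genes in CD45-negative cells (8.56). With 3 UMIs and at least 300 CPM within the cell, cycling CD45-negative cells gave 9, 23 and 12, cycling monocyte/macrophage-like cells 0, 2 and 0, and anti-PD-1 against PBS 9 in cycling CD8 T-like cells. Other CD45-negative cells then gave 0 in each comparison, and other monocyte/macrophage-like cells 3 for anti-PD-1 and 3 for the combination against PBS. The ratios were 15.5 and 6.45 in NK-like, 20.3 and 15.5 in monocyte/macrophage-like, and 13.1 (8.69) and 14.2 in CD45-negative cells.

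With no filter on low counts, cycling CD45-negative cells gave 6, 20 and 12 called members, anti-PD-1 against PBS gave 7 in cycling CD8 T-like and 7 in cycling monocyte/macrophage-like cells, and the combination against PBS 3 in cycling regulatory T-like cells. Other CD8 T-like cells gave 0 and 0 for the combination, other monocyte/macrophage-like cells 0 in each comparison, and other regulatory T-like cells 1 between the treatments. With predicted doublets kept, the combination against anti-PD-1 gave 11 in cycling CD45-negative and 10 in cycling CD8 T-like cells, and anti-PD-1 against PBS 0 in the latter. Other cells gave 0 and 0 for the combination in CD45-negative cells, 1 for anti-PD-1 against PBS in CD8 T-like cells, 1 between the treatments in monocyte/macrophage-like cells, and 2 (anti-PD-1 against PBS) and 1 (between the treatments) in regulatory T-like cells. The NK-like ratios were 10.3 and 4.10. With sums thinned to the lowest total, anti-PD-1 against PBS gave 7 in cycling CD45-negative, 8 in cycling CD8 T-like and 4 in cycling monocyte/macrophage-like cells. The combination against anti-PD-1 gave 14 in cycling CD45-negative and 6 in cycling regulatory T-like cells, and against PBS 1 in the latter. Other cells gave 0 and 0 for the combination in CD45-negative cells, 0 and 1 in CD8 T-like cells, and 2 (anti-PD-1 against PBS) and 1 (between the treatments) in regulatory T-like cells.

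Without shared barcodes, cycling monocyte/macrophage-like cells gave 7, 0 and 0 called members. Their medians became 0.94 (core, from -0.28) and 0.38 (linker, from -0.71) for anti-PD-1, and 0.11 (core, from -0.79) and 0.43 (linker, from -0.34) for the combination, each against PBS. For anti-PD-1 against PBS, Hist1h1b turned to 0.50 there. For the combination against PBS, the log2 fold changes turned to 0.69 for Hist1h1b, 0.58 for Hist1h1c, 0.14 for Hist1h1d, 0.43 for Hist1h1e, 0.24 for Hist1h2be, 0.42 for Hist1h2bj, 0.29 for Hist1h2bn, 0.20 for Hist1h4c, 0.56 for Hist1h4d, 0.14 for Hist1h4h and 0.10 for Hist1h4n, and in CD8 T-like cells to 0.18 for Hist1h1e (from -0.01). The combination called 0 and 0 members in other CD8 T-like cells and 0 and 0 in other monocyte/macrophage-like cells, and 1 against anti-PD-1 in other regulatory T-like cells. The ratios were 7.24 (core) and 2.89 (linker) in NK-like cells and 6.43 and 5.18 in monocyte/macrophage-like cells. There the linker share in the combination exceeded the PBS mean by 5.09 percentage points (8.91 with them). Keeping a shared barcode only in its deepest library changed calls past 1.5 times in other monocyte/macrophage-like cells alone, to 0 and 1 for the combination.

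Omitting one or the other PBS library (leave-one-out), the log2 fold change of the combination against PBS in cycling CD45-negative cells ranged from -0.43 to 0.047 for Hist1h1a, from -0.24 to 0.070 for Hist1h1b and from -0.075 to 0.30 for Hist1h1e. In cycling regulatory T-like cells it ranged from -0.60 to 0.13 for Hist1h1e, and the linker median of anti-PD-1 against PBS from -0.31 to 0.078.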
